A study of Mus musculus with 9 samples.

Results

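The genes described here changed at least 2-fold in haematopoietic stem cells (HSCs) when 2 brain regions were silenced, and lay near the control level when that inhibition was combined with spermidine. They were chosen from the deposited TPM values, a measure of transcript abundance scaled for transcript length and library depth. A gene had to reach a mean of 10 TPM in at least 1 group, an inhibition mean at least 2 times or at most 0.5 times the control mean, and a spermidine mean from 20% below to 25% above the control mean, the return range. Of 19454 genes listed, 4688 reached 10 TPM and 1147 of those changed 2-fold with inhibition. Only 15 of the 1147 met the last condition, 3 that were higher with inhibition (Lgals3, Fkbp11 and Ctsh) and 12 that were lower (Gem, Nrgn, Fam53a, Tle6, H2-Q5, H2-Ab1, Lat, Dhx16, Nsd1, Ppp6r2, Ube2s and Pbx4). Since all 3 groups chose the genes, their differences and their return are given as a description with no test, and choosing on shared groups favours an apparent return.

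The title of the study names psychological stress, the ageing of HSCs and depletion of spermidine made by gut bacteria. All 9 came from sorted HSCs of wild-type mouse bone marrow, with 1500 cells and 12 PCR cycles per library, and fell into 3 groups of 3. For the control group (Ctrl) the labels name no treatment of the brain. The inhibition group (library names AAV) had chemogenetic inhibition of the mPFC and the PAG, and the spermidine group (AAV-SPD) had that inhibition together with a spermidine supplement. The labels give no virus serotype, promoter, drug, age, sex or sort markers, so silencing cannot be told apart from the virus or the drug. They also do not say that the libraries of a group came from separate mice, so the spread between them may be technical.

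HSCs sit at the top of blood formation and can either renew themselves or give rise to all blood lineages. Spermidine is a polyamine, a small charged molecule that binds nucleic acids and supplies the group that modifies the translation factor eIF5A. Its levels decline with age in many tissues, and it is known as an inducer of autophagy, the recycling of cell contents in lysosomes.

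Total estimated counts were 16096117 to 25360110 per library. Defining HSC markers were low in the control libraries, with Procr at 0.078 to 0.14 TPM and Hlf at 0.28 to 0.84 TPM, against 2.04 to 2.52 and 3.20 to 3.59 TPM with inhibition and 4.81 to 5.28 and 6.75 to 6.97 TPM with spermidine. Slamf1 (CD150) went the other way, from 14.0 to 14.8 TPM in control to 2.43 to 3.09 TPM with inhibition and 2.63 to 3.06 TPM with spermidine. Transcripts of other cells also differed between groups. The summed TPM of 35 neutrophil genes was 6574 to 6810 in control, 89957 to 90787 with inhibition and 39161 to 39908 with spermidine, and that of 32 megakaryocyte and platelet genes was 4758 to 5045, 530.4 to 542.6 and 576.0 to 591.9. In bulk libraries fewer cells of a type and less RNA per cell cannot be told apart. The part of these shifts in the results below was not tested unless a value is given.

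Return to the control level was rare in both directions. Of 605 genes at least 2-fold higher with inhibition, 3 (0.496%) were in the return range with spermidine, and 602 stayed above it. Of 542 genes at least 2-fold lower, 12 (2.21%) were within the range, 528 stayed below it and 2 went past it. Those 2, named after their values were seen, were Id3, an inhibitor of helix-loop-helix transcription factors (ratios to control of 0.50 with inhibition and 1.49 with spermidine), and Kdm3b, a histone demethylase (0.35 and 1.55). Over all 1147 genes, 923 (80.5%) were still at least 2-fold from control with spermidine and 523 (45.6%) lay within the same distance of their inhibition level. The median share of the log2 change that remained was 89.8% (quartiles 73.8% and 113%) for the higher genes and 90.4% (71.8% and 103%) for the lower genes. The spermidine mean lay on the control side of the inhibition mean for 63.6% of the higher and 69.2% of the lower genes. In TMM-scaled TPM, described further on, it did so for 81.0% of the higher and 35.7% of the lower genes, and the median share of the change that remained was 70.9% and 107%, so for the lower genes the majority direction turned with the scaling. With the roles of the 2 inhibition groups exchanged, so that the spermidine group had to differ 2-fold and the inhibition group to sit in the range, 30 of 762 higher genes and 0 of 434 lower genes qualified.

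**Figure D1:**
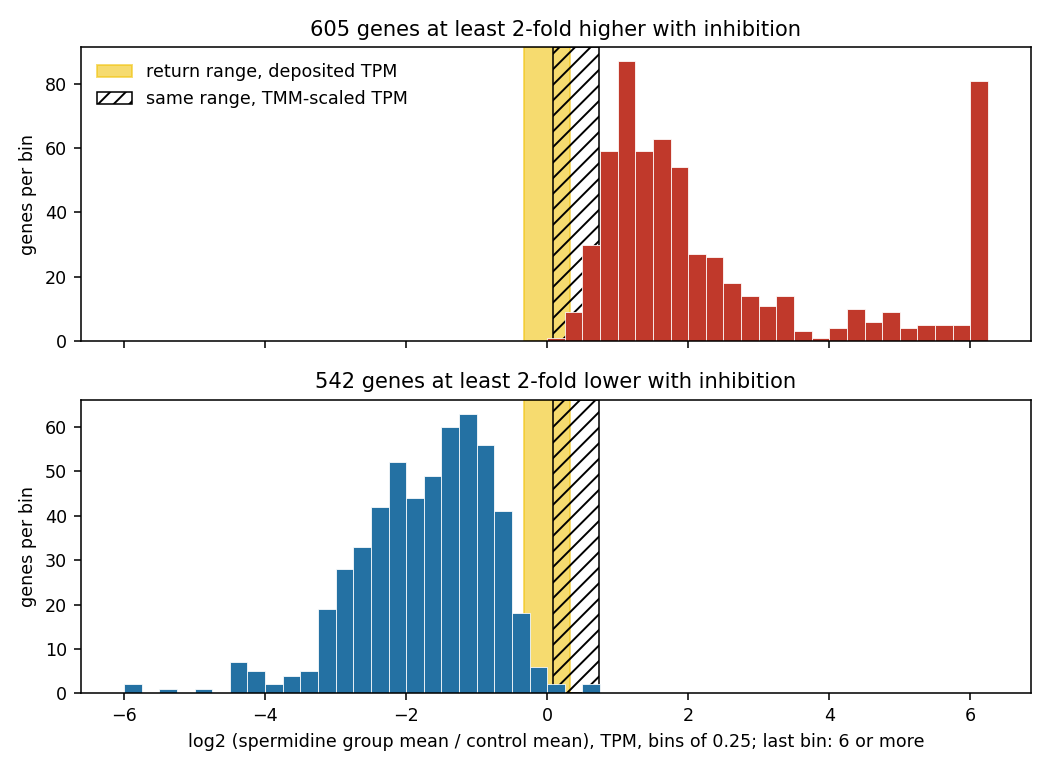
Histogram of the log2 ratio of the spermidine mean to the control mean in deposited TPM for genes at least 2-fold higher (top) or lower (bottom) with inhibition, with genes per bin on the vertical axis and log2 ratios of 6 or more in the last bin. The shaded return range holds 3 of 605 and 12 of 542 genes, and the hatched range shows where the same limits fall after the 0.41 shift of TMM scaling.

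The 15 genes lay on 10 chromosomes, and 14 are annotated as protein-coding. Positions are the bounds of each gene in GENCODE M21 for mm10, the build named in the submitters' processing notes. Between libraries of a group the coefficient of variation of a member had a median of 5.99% in control, 4.73% with inhibition and 5.36% with spermidine. The largest values were 20.8% for Fam53a in control and 25.8% for H2-Q5 with spermidine.

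Differences were common among all genes, so the members' counts carry little by themselves. Library ranges of inhibition and control were apart for 15 of 15 members, and for 83.8% of the 4688 genes at 10 TPM or more. Ranges of spermidine and inhibition were apart for 15 of 15 (71.2% of all), and those of spermidine and control for 7 of 15 (85.7% of all). In edgeR's quasi-likelihood test (Benjamini-Hochberg adjusted p under 0.05) 15 of 15 members passed for inhibition against control, where 72.4% of 14461 genes did. For spermidine against inhibition 14 of 15 passed (58.1% of all genes), and for spermidine against control 12 of 15 (78.1% of all genes). The 3 that did not pass there were Lgals3, Ctsh and Tle6. Nothing is read from these shares, since the same contrasts chose the members. With TMM factors the 12 that passed sat below control, with log2 fold changes from -0.22 for Ppp6r2 to -1.105 for H2-Q5. In CPM with library totals Ppp6r2 was instead above control, at a ratio of 1.03. Over all genes the split for spermidine against inhibition was 4213 higher and 4183 lower with TMM scaling, but 7711 and 1793 with total counts only. For spermidine against control it was 5930 and 5363, or 7705 and 3682 with total counts only.

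**Figure D2:**
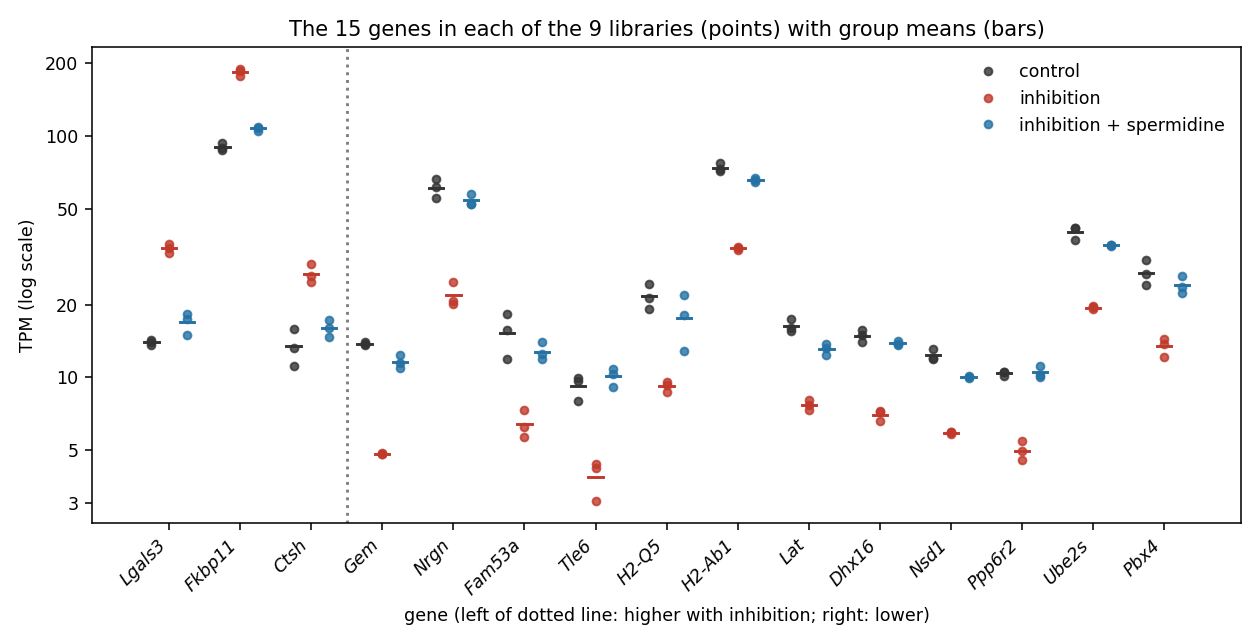
TPM of the 15 genes (log scale) in each of the 9 libraries, with 3 points per group and a bar at the group mean; the dotted line separates the 3 genes higher with inhibition from the 12 lower ones. No inhibition library overlaps a control or spermidine library for any of the 15 genes.

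The 3 higher genes encode proteins of secretion, the lysosome and the cell surface. Lgals3 (ENSMUSG00000050335, chr14:47367751-47386160, plus strand) encodes galectin-3, a lectin that binds galactose-bearing glycans and is abundant in macrophages. Lgals3 measured 14.03, 14.3 and 13.6 TPM in the control libraries, 34.4, 35.8 and 32.7 TPM with inhibition and 15.02, 18.2 and 17.5 TPM with inhibition and spermidine. Its group means were 13.97 ± 0.334, 34.3 ± 1.56 and 16.9 ± 1.66 TPM (SD, n = 3 each), ratios to control of 2.45 and 1.21, so 21.1% of the log2 change remained. All 3 spermidine libraries lay above all 3 control libraries and far below the inhibition libraries. Its promoter is shown because Lgals3 was 1 of the 2 genes that kept their place when the TPM table was rescaled, as described further on. Capitals mark a CCAAT box and 2 GC boxes on either strand.
Lgals3 promoter, chr14:47373610-47373909, plus strand: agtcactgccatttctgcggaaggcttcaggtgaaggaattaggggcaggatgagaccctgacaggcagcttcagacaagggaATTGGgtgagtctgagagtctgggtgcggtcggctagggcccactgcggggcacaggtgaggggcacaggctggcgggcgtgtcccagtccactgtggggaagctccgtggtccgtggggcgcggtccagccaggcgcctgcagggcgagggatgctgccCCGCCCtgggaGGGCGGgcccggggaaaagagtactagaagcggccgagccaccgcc

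Fkbp11 (ENSMUSG00000003355, chr15:98724366-98728198, minus strand) encodes a peptidyl-prolyl isomerase of the endoplasmic reticulum that is prominent in antibody-secreting cells. Fkbp11 measured 93.8, 88.9 and 87.4 TPM in the control libraries, 185, 178 and 189.8 TPM with inhibition and 108, 109 and 105 TPM with inhibition and spermidine. These gave means of 90.02 ± 3.37, 184 ± 6.12 and 108 ± 2.35 TPM (SD, n = 3 each), ratios to control of 2.05 and 1.19. It was the most abundant of the 15 genes, and its 3 groups did not overlap. The counts behind it moved less than the TPM values. In CPM (counts divided by the library total, with no length term) the inhibition ratio was 1.53, under the 2-fold limit. With spermidine the CPM ratio to control was 0.90, and edgeR put Fkbp11 below control (log2 fold change -0.41, SE 0.0452). On which side of control it ended thus depends on the measure. The effective transcript length implied by dividing counts by TPM differed from control by -0.37 on the log2 scale with inhibition and -0.29 with spermidine, so counts and TPM did not give the same ratio. The summed TPM of immunoglobulin segments was 57.6 to 74.0 in control, 36380 to 39918 with inhibition and 20413 to 23027 with spermidine, and its part in the Fkbp11 values was not tested.

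Ctsh (ENSMUSG00000032359, chr9:90054152-90076089, plus strand) encodes cathepsin H, a lysosomal cysteine protease. Ctsh measured 11.2, 13.2 and 15.9 TPM in the control libraries, 26.4, 29.6 and 24.8 TPM with inhibition and 17.3, 15.9 and 14.6 TPM with inhibition and spermidine. In the same order, the means were 13.4 ± 2.35, 26.9 ± 2.45 and 15.9 ± 1.33 TPM (SD, n = 3 each), ratios to control of 2.01 and 1.19. Its control and spermidine libraries overlapped, and the inhibition libraries stood above both. Ctsh passed the 2-fold limit narrowly and met the rule in 5 of the 9 repeats that left out 1 library. Of 8 other cathepsin genes at 10 TPM or more, 4 were at least 2-fold higher with inhibition, and none of those 4 met the return limit: Ctsg went from 535 to 1665 and 1066 TPM, and Ctsb stayed at 3.54 times control with spermidine. The summed TPM of 34 monocyte, macrophage and dendritic genes, a list that holds neither Lgals3 nor Ctsh, was 820.0 to 863.6 in control, 1533 to 1562 with inhibition and 1112 to 1140 with spermidine. Ly6c2 alone had means of 435, 814 and 472 TPM in these groups. Of the 12 list genes at 10 TPM or more, 5 were at least 2-fold higher with inhibition. With spermidine these 5 stayed above the return range, from 2.12 times control for Fcgr3 to 6.89 for Fcgr4. The part of these cells in the values of Lgals3 and Ctsh was not tested.

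Among the 12 lower genes, 3 act in calcium and receptor signalling. Gem (ENSMUSG00000028214, chr4:11704457-11714752, plus strand) encodes a small GTP-binding protein of the RGK group, which restrains voltage-gated calcium channels. Gem measured 14, 13.6 and 13.7 TPM in the control libraries, 4.79, 4.81 and 4.83 TPM with inhibition and 10.9, 12.3 and 11.5 TPM with inhibition and spermidine. The 3 groups averaged 13.8 ± 0.219, 4.81 ± 0.0188 and 11.6 ± 0.7004 TPM (SD, n = 3 each), ratios to control of 0.35 and 0.84, the lowest inhibition ratio among the members. The 3 inhibition libraries differed by less than 0.1 TPM, and the spermidine libraries all lay just below the control libraries. Rrad, another RGK gene, stayed below the 10 TPM limit and so could not be a member. Its means were 5.4 ± 0.0707, 2.08 ± 0.2299 and 6.52 ± 0.411 TPM (SD, n = 3 each; ratios to control 0.39 and 1.21). In edgeR's quasi-likelihood test on the counts it fell with inhibition (log2 fold change -1.56, SE 0.104, adjusted p = 5.17e-10) and rose with spermidine against inhibition (log2 fold change 1.23, SE 0.105, adjusted p = 5.05e-08). Rrad against control with spermidine had a log2 fold change of -0.33 (SE 0.088, adjusted p = 0.00252) in that fit, but of 0.23 in limma on log2(TPM + 1), so on which side of control it ended depends on the scaling.

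Nrgn (ENSMUSG00000053310, chr9:37544492-37552904, minus strand) encodes neurogranin, a calmodulin-binding protein best known from neurons. Nrgn measured 61.4, 66.4 and 55.2 TPM in the control libraries, 20.7, 20.2 and 24.8 TPM with inhibition and 52.4, 57.3 and 52.4 TPM with inhibition and spermidine. Per group, this was 61.01 ± 5.61, 21.9 ± 2.52 and 54.03 ± 2.85 TPM (SD, n = 3 each), ratios to control of 0.36 and 0.89. The inhibition libraries lay below 25 TPM, every other library lay above 50 TPM, and control and spermidine overlapped.
Nrgn promoter, chr9:37552696-37552995, minus strand: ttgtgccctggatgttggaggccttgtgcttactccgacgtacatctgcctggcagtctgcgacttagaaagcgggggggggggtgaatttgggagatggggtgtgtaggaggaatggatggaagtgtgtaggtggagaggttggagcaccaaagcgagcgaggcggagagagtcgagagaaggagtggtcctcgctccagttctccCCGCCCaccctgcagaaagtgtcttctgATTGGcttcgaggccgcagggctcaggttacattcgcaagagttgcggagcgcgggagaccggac
Lat (ENSMUSG00000030742, chr7:126363824-126369570, minus strand) encodes the linker for activation of T cells, a membrane adaptor used in T cells, mast cells and platelets. Lat measured 17.4, 15.98 and 15.5 TPM in the control libraries, 7.28, 7.998 and 7.65 TPM with inhibition and 13.3, 12.3 and 13.7 TPM with inhibition and spermidine. Its group means were 16.3 ± 0.976, 7.64 ± 0.3603 and 13.1 ± 0.684 TPM (SD, n = 3 each), ratios to control of 0.47 and 0.80, at the edge of the return range. Its spermidine libraries lay below all control libraries, and it met the rule in 5 of 9 repeats that left out 1 library.
Lat promoter, chr7:126369519-126369818, minus strand: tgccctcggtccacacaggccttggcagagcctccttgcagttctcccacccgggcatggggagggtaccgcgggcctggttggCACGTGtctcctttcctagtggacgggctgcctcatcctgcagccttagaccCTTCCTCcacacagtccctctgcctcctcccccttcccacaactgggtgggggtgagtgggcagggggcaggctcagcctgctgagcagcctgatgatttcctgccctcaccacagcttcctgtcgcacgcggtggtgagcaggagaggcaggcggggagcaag
Both promoters are shown as those of signalling genes that were lower. In Nrgn the capitals mark a GC box and a CCAAT box. In Lat, where neither was found, they mark a MYC-type E-box and a PU.1-type ETS site.

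Lat went the other way from most of the T and NK cell list that holds it. Of 21 tested genes of that list, 19 rose and 1 fell with inhibition in edgeR (adjusted p under 0.05), with a median log2 fold change of 1.96 against 0.02 over all 14461 genes tested. With spermidine against inhibition, 4 rose and 7 fell (median -0.26 against 0.03 over all genes). Transcripts of the T cell receptor complex were low: in control, inhibition and spermidine Cd3e had means of 0.0097, 0.071 and 0.255 TPM, Cd3d of 1.54, 4.86 and 3.65 TPM, Cd3g of 0.184, 2.59 and 1.60 TPM, Cd247 of 0.041, 0.637 and 1.12 TPM and Trbc2 of 0.193, 2.70 and 2.80 TPM. The sum of the list was 1457 to 1511, 2098 to 2207 and 1446 to 1550 TPM in the 3 groups, and most of it came from Nkg7, with means of 1437, 2032 and 1359 TPM. Platelets and mast cells also carry Lat. The megakaryocyte and platelet sums given above were lower with inhibition and with spermidine than in control. The summed TPM of 24 basophil, eosinophil and mast cell genes was 2680 to 2774 in control, 3655 to 3802 with inhibition and 3274 to 3441 with spermidine. The part of any of these cells in the Lat values was not tested.

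A pair of the lower genes belong to the histocompatibility genes. H2-Ab1 (ENSMUSG00000073421, chr17:34257689-34269419, plus strand) encodes the beta chain of the class II molecule I-A, which presents peptides to CD4+ T cells. H2-Ab1 measured 71.5, 72.7 and 77.1 TPM in the control libraries, 34.7, 34.4 and 33.8 TPM with inhibition and 64.6, 67.2 and 65.9 TPM with inhibition and spermidine. These gave means of 73.7 ± 2.98, 34.3 ± 0.466 and 65.9 ± 1.3 TPM (SD, n = 3 each), ratios to control of 0.47 and 0.89. The 3 groups did not overlap, and the spermidine libraries lay just under control. Its partner chain H2-Aa had means of 18.9 ± 2.15, 13.7 ± 1.43 and 21.6 ± 0.354 TPM (SD, n = 3 each; ratios to control 0.73 and 1.14). H2-Eb1, the beta chain of the class II molecule I-E, had 13.6 ± 0.307, 11.7 ± 1.22 and 24.3 ± 1.06 TPM (SD, n = 3 each; ratios to control 0.86 and 1.78), and Cd74, the invariant chain, had 96.6 ± 4.99, 79.2 ± 2.78 and 141 ± 2.398 TPM (SD, n = 3 each; ratios to control 0.82 and 1.46). The inhibition ratios of these 3 genes were nearer to 1 than that of H2-Ab1, and their spermidine means lay above control in TPM. The other 2 class II genes at 10 TPM or more had inhibition means above control: H2-DMa, a chain of the peptide-loading protein H2-M, had 124 ± 7.72, 139 ± 4.82 and 223 ± 3.67 TPM (SD, n = 3 each; ratios to control 1.12 and 1.79), and H2-Oa, a chain of its modulator H2-O, had 4.45 ± 0.336, 5.96 ± 0.569 and 10.4 ± 0.156 TPM (SD, n = 3 each; ratios to control 1.34 and 2.34). Neither difference between inhibition and control passed in edgeR (H2-DMa log2 fold change 0.05, SE 0.0359, adjusted p = 0.253, and H2-Oa log2 fold change 0.21, SE 0.101, adjusted p = 0.0716).

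In edgeR Cd74 fell with inhibition (log2 fold change -0.44, SE 0.0401, adjusted p = 3.3e-08) and rose with spermidine against inhibition (log2 fold change 0.53, SE 0.0396, adjusted p = 1.12e-08), and H2-Eb1 did likewise (log2 fold change -0.32, SE 0.0614, adjusted p = 0.000186, and log2 fold change 0.70, SE 0.0579, adjusted p = 3.47e-08). Against control with spermidine, H2-Eb1 was higher (log2 fold change 0.38, SE 0.0568, adjusted p = 1.22e-05), Cd74 missed the threshold (log2 fold change 0.09, SE 0.0391, adjusted p = 0.0559), which it passed with the replicate block (log2 fold change 0.09), total counts only (0.35) and limma on log2(TPM + 1) (0.55), and H2-Aa was lower (log2 fold change -0.31, SE 0.0548, adjusted p = 8.78e-05), although H2-Aa was higher by 0.18 in limma on log2(TPM + 1). The monocyte, macrophage and dendritic list that holds H2-Ab1 had 20 genes up and 8 down of 31 with inhibition (median 0.81). Over all 14461 genes tested, 5240 were up and 5227 down (median 0.02). H2-Aa, H2-Eb1 and Cd74 are also in that list, and they and H2-Ab1 were among its genes that fell. With spermidine against inhibition the list had 7 up and 18 down (median -0.50), while H2-Ab1, H2-Aa, H2-Eb1 and Cd74 rose. All genes had 4213 up and 4183 down there (median 0.03).

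H2-Q5 (ENSMUSG00000055413, chr17:35394126-35397800, plus strand) is a class I gene annotated as a polymorphic pseudogene, and its reads can be shared with near-identical H2-Q copies, so its values are uncertain. H2-Q5 measured 19.2, 24.4 and 21.3 TPM in the control libraries, 9.25, 9.52 and 8.68 TPM with inhibition and 12.8, 18.04 and 21.9 TPM with inhibition and spermidine. In the same order, the means were 21.6 ± 2.57, 9.15 ± 0.433 and 17.6 ± 4.54 TPM (SD, n = 3 each), ratios to control of 0.42 and 0.81. The first and second spermidine libraries lay below the control range and the third inside it, and the spread with spermidine was the widest of the 15. In counts it stayed low, with a CPM ratio of 0.56 with spermidine. Of 7 other class I genes at 10 TPM or more, 3 were at least 2-fold lower with inhibition: H2-Q6 with 73.99 ± 0.783, 19.3 ± 0.475 and 36.8 ± 0.993 TPM (SD, n = 3 each; ratios to control 0.26 and 0.50), H2-Q7 with 147 ± 3.83, 54.01 ± 1.38 and 92.5 ± 2.55 TPM (SD, n = 3 each; ratios to control 0.37 and 0.63) and H2-T23 with 349 ± 6.76, 111 ± 5.04 and 145 ± 2.08 TPM (SD, n = 3 each; ratios to control 0.32 and 0.42). None of the 3 reached the return range. H2-T22, with 22.3 ± 1.24, 20.8 ± 0.926 and 30.7 ± 0.601 TPM (SD, n = 3 each; ratios to control 0.94 and 1.38), and H2-M3, with 6.12 ± 0.399, 10.9 ± 0.593 and 15.4 ± 0.4303 TPM (SD, n = 3 each; ratios to control 1.77 and 2.51), were not lower than control with spermidine, and the remaining 2 are given next.

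The classical class I genes H2-K1 and H2-D1 fell by less than 2-fold, so they could not be members. H2-K1 had 455 ± 23.7, 261 ± 2.52 and 409 ± 15.01 TPM (SD, n = 3 each; ratios to control 0.57 and 0.90), and H2-D1 had 228 ± 4.91, 159 ± 2.79 and 200.5 ± 3.297 TPM (SD, n = 3 each; ratios to control 0.70 and 0.88). In edgeR both were lower with inhibition (H2-K1 log2 fold change -0.69, SE 0.0285, adjusted p = 7.04e-13; H2-D1 log2 fold change -0.60, SE 0.0283, adjusted p = 5.27e-12). With spermidine against inhibition H2-K1 rose (log2 fold change 0.29, SE 0.0284, adjusted p = 2.63e-07), as did H2-Q7 (log2 fold change 0.37, SE 0.0338, adjusted p = 1.32e-07) and H2-Q6 (log2 fold change 0.62, SE 0.0335, adjusted p = 2e-10). H2-D1 (log2 fold change 0.01, SE 0.0283, adjusted p = 0.874) and H2-T23 (log2 fold change 0.08, SE 0.0426, adjusted p = 0.122) missed the threshold, although with total-count scaling and with limma on TPM both rose. H2-K1, H2-D1, H2-Q6, H2-Q7 and H2-T23 were all still lower than control with spermidine in edgeR, at log2 fold changes of -0.40, -0.59, -1.38, -0.93 and -1.73.

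**Figure D3:**
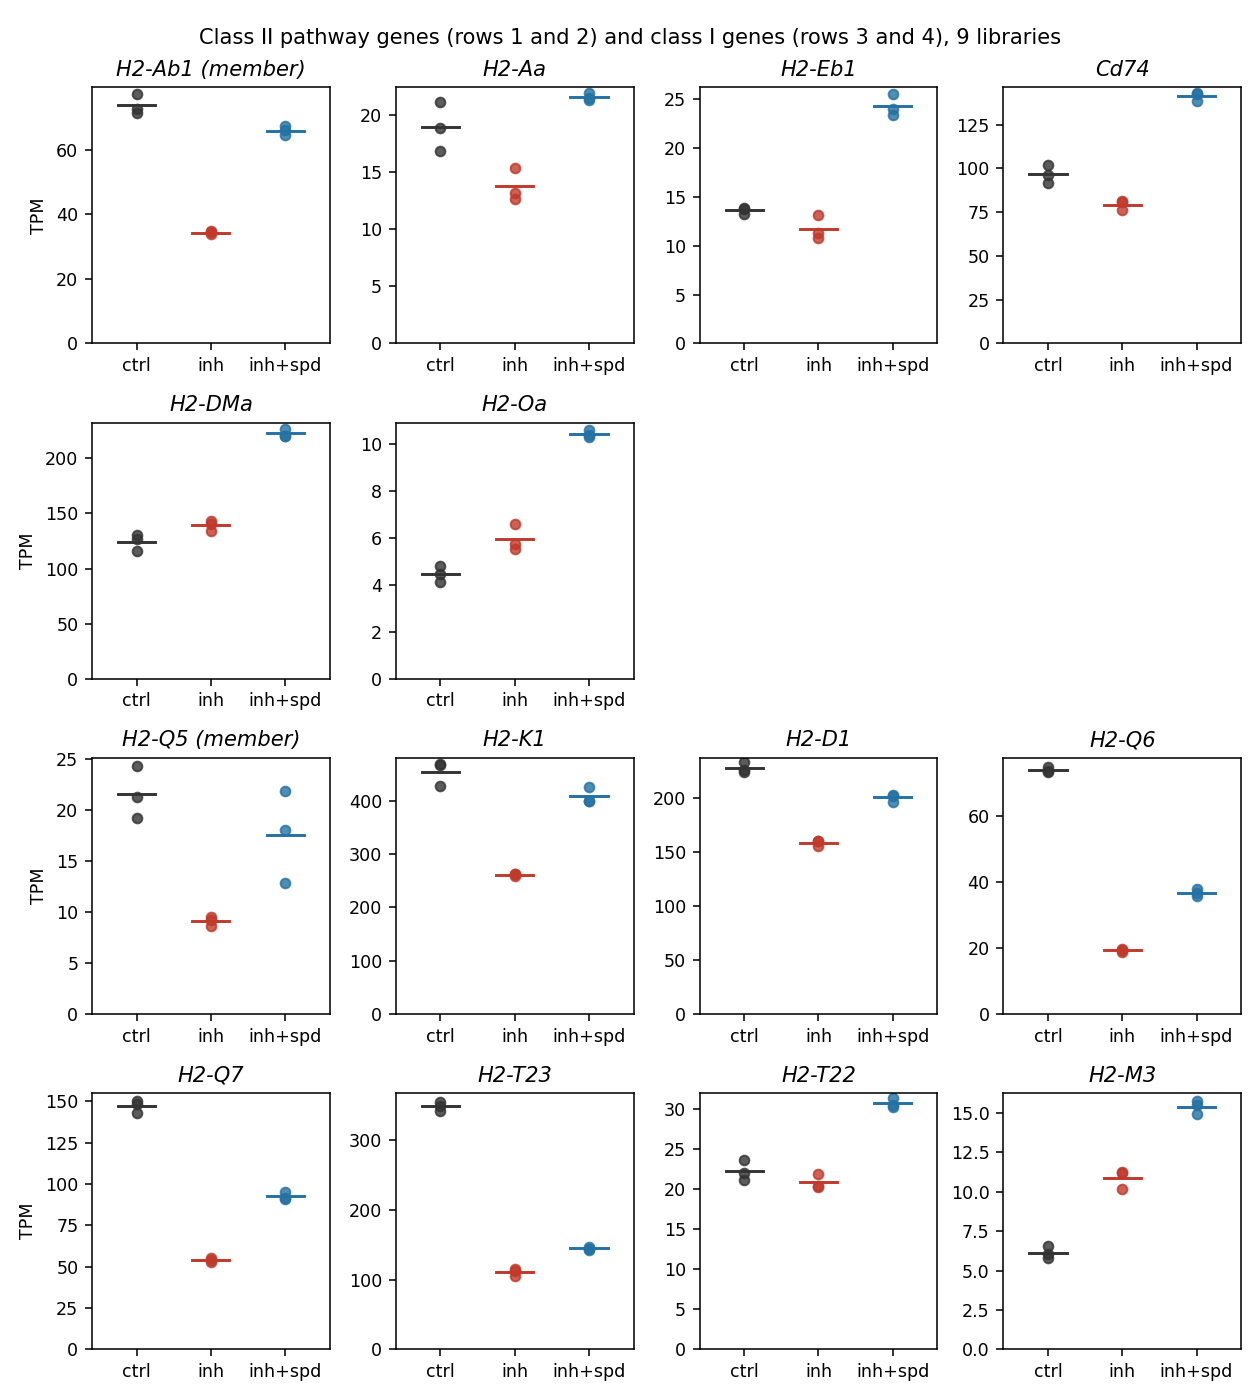
TPM of 6 class II pathway genes (top 2 rows) and 8 class I genes (bottom 2 rows) in the control (ctrl), inhibition (inh) and spermidine (inh+spd) libraries, each panel from 0 on its own axis, with points for libraries and bars for group means. H2-Ab1 and H2-Q5 are the 2 members. H2-Q6, H2-Q7 and H2-T23 are at 0.42 to 0.63 times control with spermidine. The means of H2-Aa, Cd74, H2-Eb1, H2-DMa, H2-Oa, H2-T22 and H2-M3 lie above control there.

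Both genes and Dhx16 lie on chromosome 17, in the histocompatibility region from the first to the last H2 gene listed (chr17:33974659-37483552), which was examined after the members were known. The region holds 3 of the 15 members (20%), 17 of the 1147 changed genes (1.48%) and 46 of the 4688 genes at 10 TPM or more (0.981%). Nothing is read from these shares, since the members H2-Ab1 and H2-Q5 led to the region. Of its 17 changed genes, 15 were lower and 2 higher with inhibition. In deposited TPM the median log2 ratio to control over the 46 genes was -0.40 with inhibition and 0.07 with spermidine, against 0.07 and 0.27 over all 4688. These medians depend on the scale. TMM factors, described further on, lower spermidine values by 0.41 and inhibition values by 0.067 relative to control on the log2 scale. The other changed genes of the region were outside the return range: Tap1, a peptide transporter for class I loading, went from 10.3 to 3.95 and 5.32 TPM, and Brd2, a bromodomain protein, from 43.2 to 18.6 and 18.9 TPM.

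Another 4 of the lower genes act on transcription, chromatin or RNA. Tle6 (ENSMUSG00000034758, chr10:81590904-81601073, minus strand) encodes a Groucho/TLE family protein, known as a part of the maternal complex of the egg. Tle6 measured 9.61, 9.94 and 7.96 TPM in the control libraries, 3.06, 4.18 and 4.34 TPM with inhibition and 10.8, 10.3 and 9.08 TPM with inhibition and spermidine. The 3 groups averaged 9.17 ± 1.06, 3.86 ± 0.695 and 10.1 ± 0.909 TPM (SD, n = 3 each), ratios to control of 0.42 and 1.10. Control and spermidine overlapped, and Tle6 and Ppp6r2 were the 2 of the 12 lower genes whose spermidine mean was above control. Its level rests on few counts, 43 to 172 per library. A promoter of Tle6 is shown because Tle6 was the other gene that kept its place after rescaling. Capitals mark 2 MYC-type E-boxes, a CCAAT box, 2 GC boxes and a PU.1-type ETS site. Another Tle6 promoter, chr10:81597318-81597617, is not printed, and of the motifs searched it held only an ETS site.
Tle6 promoter, chr10:81600851-81601150, minus strand: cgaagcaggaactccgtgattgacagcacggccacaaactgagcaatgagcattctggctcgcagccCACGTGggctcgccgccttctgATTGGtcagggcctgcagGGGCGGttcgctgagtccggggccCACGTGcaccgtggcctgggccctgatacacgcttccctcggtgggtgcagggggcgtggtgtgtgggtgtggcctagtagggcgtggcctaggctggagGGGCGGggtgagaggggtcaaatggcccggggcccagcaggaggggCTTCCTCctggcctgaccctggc

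Pbx4 (ENSMUSG00000031860, chr8:69832491-69872292, plus strand) encodes a homeodomain partner of HOX proteins. Pbx4 measured 24.01, 26.8 and 30.6 TPM in the control libraries, 12.1, 13.7 and 14.4 TPM with inhibition and 22.3, 26.2 and 23.7 TPM with inhibition and spermidine. Per group, this was 27.2 ± 3.33, 13.4 ± 1.17 and 24.04 ± 2.01 TPM (SD, n = 3 each), ratios to control of 0.49 and 0.89. Control and spermidine overlapped, but in CPM with library totals the spermidine ratio was 0.68, outside the range. Nsd1 (ENSMUSG00000021488, chr13:55209782-55318325, plus strand) encodes a histone methyltransferase. Nsd1 measured 11.9, 12 and 13.04 TPM in the control libraries, 5.91, 5.89 and 5.79 TPM with inhibition and 9.92, 10.1 and 9.98 TPM with inhibition and spermidine. Its group means were 12.3 ± 0.639, 5.86 ± 0.0613 and 10.01 ± 0.103 TPM (SD, n = 3 each), ratios to control of 0.48 and 0.81. The 3 groups did not overlap. Its effective length differed from control by 0.47 on the log2 scale with inhibition and 0.27 with spermidine, and its CPM ratio with inhibition was 0.64, short of 2-fold.

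Dhx16 (ENSMUSG00000024422, chr17:35879819-35892670, plus strand) encodes a DEAH-box helicase of the spliceosome. Dhx16 measured 15.6, 13.99 and 14.96 TPM in the control libraries, 7.21, 7.17 and 6.602 TPM with inhibition and 14.1, 13.6 and 13.7 TPM with inhibition and spermidine. These gave means of 14.9 ± 0.821, 6.99 ± 0.339 and 13.8 ± 0.248 TPM (SD, n = 3 each), ratios to control of 0.47 and 0.93, so only 9.86% of its log2 change remained. Its spermidine libraries overlapped the control range and no inhibition library came near it. In the promoter shown here capitals mark a GC box, an ETS site on each strand and a CCAAT box, and Dhx16 is given as the gene of these 4 whose spermidine mean was closest to control.
Dhx16 promoter, chr17:35879528-35879827, plus strand: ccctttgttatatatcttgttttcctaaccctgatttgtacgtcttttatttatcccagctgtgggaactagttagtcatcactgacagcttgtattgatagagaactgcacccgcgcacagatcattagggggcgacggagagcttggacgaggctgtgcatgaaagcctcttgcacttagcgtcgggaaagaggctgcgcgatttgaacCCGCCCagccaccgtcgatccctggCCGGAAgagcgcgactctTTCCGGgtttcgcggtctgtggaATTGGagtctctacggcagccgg
Fam53a (ENSMUSG00000037339, chr5:33600347-33629635, minus strand) was the remaining member with a large spread. Fam53a measured 18.3, 11.9 and 15.7 TPM in the control libraries, 7.33, 6.19 and 5.67 TPM with inhibition and 12.4, 13.99 and 11.9 TPM with inhibition and spermidine. In the same order, the means were 15.3 ± 3.18, 6.39 ± 0.849 and 12.8 ± 1.105 TPM (SD, n = 3 each), ratios to control of 0.42 and 0.83. The second control library lay inside the spermidine range, and without it, or without the second spermidine library, Fam53a no longer met the rule. Its effective length differed by 0.50 on the log2 scale with inhibition. In edgeR the counts gave log2 fold changes of -0.79 (SE 0.0926) with inhibition and 0.19 (SE 0.0955) with spermidine against inhibition, and the second was the only 1 of the 15 that did not pass the threshold there.

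The last 2 members encode a ubiquitin enzyme and a phosphatase subunit. Ube2s (ENSMUSG00000060860, chr7:4794546-4812590, minus strand) encodes the ubiquitin-conjugating enzyme that extends chains for the anaphase-promoting complex. Ube2s measured 41.6, 41.5 and 36.9 TPM in the control libraries, 19.5, 19.1 and 19.7 TPM with inhibition and 35.4, 35.2 and 35.04 TPM with inhibition and spermidine. The 3 groups averaged 40.01 ± 2.69, 19.4 ± 0.298 and 35.2 ± 0.195 TPM (SD, n = 3 each), ratios to control of 0.49 and 0.88. The spermidine libraries, all near 35 TPM, lay just below the control range. Ube2s shares 183 exon bases (3.56% of its own) with Rpl28 on the opposite strand, which reached 1827 TPM and had ratios of 0.42 and 0.44. The labels state no strand-specific step, so reads from those bases cannot be told apart. Ube2c, the enzyme that starts such chains, did not share the pattern, with means of 131, 111 and 89.6 TPM in control, inhibition and spermidine. Ppp6r2 (ENSMUSG00000036561, chr15:89211553-89287010, plus strand) encodes a regulatory subunit of protein phosphatase 6. Ppp6r2 measured 10.5, 10.5 and 10.1 TPM in the control libraries, 4.54, 5.41 and 4.92 TPM with inhibition and 10.2, 10.1 and 11.1 TPM with inhibition and spermidine. Per group, this was 10.4 ± 0.249, 4.95 ± 0.434 and 10.5 ± 0.5603 TPM (SD, n = 3 each), ratios to control of 0.48 and 1.01. Control and spermidine overlapped and differed by less than their spread. Ppp6c, the catalytic subunit, was at 1.35 and 1.29 times control.

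Relatives of the other members were not members either. None of the families looked at, chosen after the members were known, gave a further gene within the rule. The list of 15 already fixed this outcome. Over all 1147 changed genes only 1.31% returned, so nothing is read from the absence of relatives. The families of Gem, Fam53a, Lat and Pbx4 held 0 other genes at 10 TPM or more, so no relative there could qualify. Below that level some relatives met both ratio limits, among them Rrad, H2-Q4 (ratios to control 0.39 and 0.96) and Dhx58 (0.49 and 0.90). Others did not, such as H2-T24 (0.40 and 0.45) and Ppp6r1 (0.47 and 0.60). In edgeR H2-Q4 was still lower than control with spermidine (log2 fold change -0.44). Among FK506-binding proteins, Fkbp1a was higher with inhibition and stayed so (3.67 and 4.31 times control), and Fkbp2 was lower (0.48 and 0.61). Galectin-1 (Lgals1) was at 0.91 and 0.74 times control and galectin-9 (Lgals9) at 0.69 in both groups. Nsd3 was at 1.09 and 1.43, and Tle5 at 0.85 and 1.09.

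The scale set which genes counted as returned. TMM scaling trims the genes with the most extreme ratios before it sets libraries to a common level. In the deposited TPM the median ratio of spermidine to control over the 4688 genes was 1.21 (log2 0.27), and that of inhibition to control 1.05 (log2 0.07). With TMM factors of the TPM table, spermidine values fell by 0.41 on the log2 scale relative to control and inhibition values by 0.067. The return count then became 23 of 564 higher genes (4.08%) and 2 of 617 lower genes (0.324%), against 3 and 12 in the deposited TPM. Of the 15 members only Lgals3 (ratio to control 0.91) and Tle6 (0.83) still met the whole rule. The 12 lower members had TMM-scaled ratios of 0.60 to 0.83, so 11 of them lay below the range, whereas the 3 higher members, at 0.89 to 0.91, all lay inside it. In CPM with library totals 6 of the 12 lower members lay in the return range and 4 members met the whole rule. In CPM with TMM factors 1 did, Lgals3. Both CPM settings put the level limit at 10 CPM in place of 10 TPM. Tle6 met both ratio limits there (0.44 and 1.10 with library totals, 0.44 and 0.92 with TMM factors). It dropped out on level, with a highest group mean of 6.91 CPM with TMM factors. The scale on which these libraries are truly level is not known, so return of the 12 lower genes holds for the deposited TPM and, Tle6 excepted, not for the TMM-scaled TPM.

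**Figure D4:**
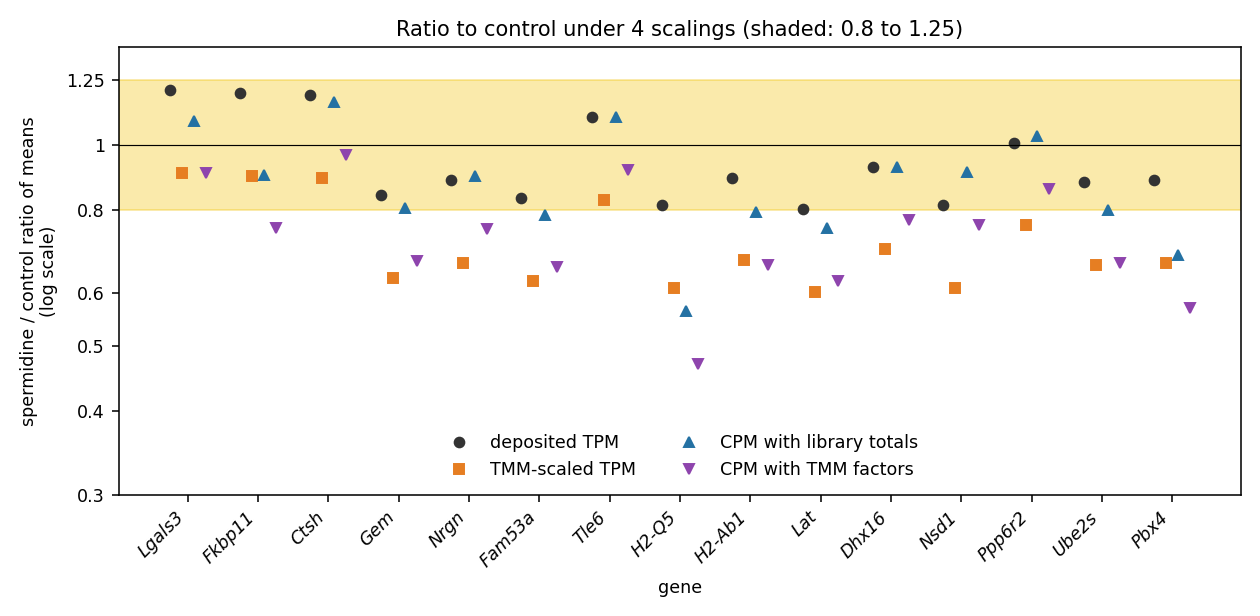
Ratio of the spermidine mean to the control mean (log scale) for each of the 15 genes in the deposited TPM, TMM-scaled TPM, and CPM with library totals or TMM factors; the shaded band is the return range. All 15 deposited TPM points lie in the band, and of the 12 lower genes 1 TMM-scaled TPM point does.

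Genes close to the limits were as follows. Ctsh was just inside the 2-fold limit at 2.01 times control and Cotl1 just outside at 1.95. On the lower side Pbx4 was inside at 0.494 and Sh3glb1 outside at 0.5004. For the return, Lgals3 was inside at 1.21 and Clu outside at 1.28, and Lat was inside at 0.802 and Inka1 outside at 0.775. For the level, Tle6 was inside with a highest mean of 10.1 TPM and Nfia outside at 9.71 TPM, and on the higher side Ctsh was inside at 26.9 TPM and Oosp1 outside at 6.22 TPM.

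Over all 1147 changed genes 1.31% returned, so a count of 0 in lists of this size is near that share, and nothing particular to a list is read from a count of 0. Of 47 gene lists, 43 held genes that changed 2-fold with inhibition, and only 2 held a member, H2-Ab1 in the monocyte, macrophage and dendritic list and Lat in the T and NK cell list. The neutrophil list had 26 genes higher and 1 lower of 28 at 10 TPM or more, and none returned. The replication-dependent histones had 50 lower of 54 and the immunoglobulin segments 77 higher of 77, again with none returned. For unfolded protein and integrated stress responses the list had 11 higher and 1 lower of 28, with no member, although Fkbp11 also belongs to the endoplasmic reticulum. Of the 13 polyamine and eIF5A genes at 10 TPM or more, 1 was higher and 1 lower, and neither returned: Sat1, which acetylates spermidine, went from 92.4 to 265 and 233 TPM, and Slc22a3, an organic cation transporter, from 18.9 to 5.20 and 6.42 TPM.

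Promoter sequence, which the rule did not use, was matched by symbol in the RefSeq table for GRCm38.p6 (250 bases before to 50 after a start site). It gave 12 promoters of 10 members, and none for Gem, Ctsh, H2-Q5, H2-Ab1 and Nsd1. The median GC content of the 12 was 59.7% (range 53.3% to 76.3%), against 60% for genes at 10 TPM or more and 52.7% for all 32851 promoters. The median number of CpG sites was 18, against 21 and 7. In these measures the members resembled expressed genes in general.

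For 14 motifs searched on both strands, the GC box (GGGCGG) was in 9 of the 12 promoters, against 35.7% of all promoters and 61.1% of those of genes at 10 TPM or more. The CCAAT box (CCAAT) was in 7, against 37.4% and 39.1%, and the MYC-type E-box (CACGTG) in 3, of Lat, Tle6 and Fkbp11, against 7.15% and 10.7%. The ETS site (CCGGAA) was in 2, against 14.9% and 32.0%, and the PU.1-type ETS site (GAGGAAG) in 2, against 13.6% and 13.9%. The TATA box (TATAAA) was in 1, of Ube2s, against 13.6% and 8.42%, and the NRF1 core (GCGCATG) in 1, of Fam53a, against 3.91% and 7.94%. In none were the GATA site (AGATAA, 11.2% of all and 6.67% of those at 10 TPM or more), RUNX site (TGTGGTT, 5.27% and 3.82%), cAMP response element (TGACGTCA, 1.79% and 3.58%), AP-1 site (TGACTCA, 5.20% and 3.58%), CEBP site (TTGCNNCAA, 2.08% and 1.34%), YY1 site (AAGATGGC, 2.75% and 5.16%) and CLEAR-type E-box (CACGTGAC, 2.25% and 4.43%). The CLEAR-type E-box contains the MYC-type one. No motif was held by all 12, and a match is only a match of letters.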

How the data were processed

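Low-input polyA RNA sequencing of sorted HSCs was analysed from 9 libraries in 3 groups of 3, grouped by their titles. The authors deposited estimated counts per gene, not scaled between libraries, of which 48.2% are whole within 1e-06, and TPM values scaled by them within each library. Software named in the submitters' processing notes comprises STAR 2.6.1d, Trim Galore 0.6.2, edgeR 3.24.3 and HTSeq 0.10.0, with mm10 as the build; which of them made which table is not given in the sources used here. The TPM columns sum to 937835 to 948801.

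Members were found from group means of the deposited TPM. The members, the gene lists, the motifs and the families of relatives were chosen with earlier results of these data known. All 15 members are described; other genes are the nearest on each side of a limit, examples of lists, relatives, or genes said to be chosen after their values were seen. Counts were rounded to whole numbers and tested in R 4.3.3 with edgeR 4.0.16 (quasi-likelihood, TMM, default filter, 14461 of 19454 genes, 9 libraries in 1 fit), with Benjamini-Hochberg adjusted p under 0.05 as the threshold. Alternatives used limma 3.58.1 and DESeq2 1.42.0. The scripts were checked on simulated data. Replicate libraries were not copies of each other (mean chi-squared per gene 2.31 to 7.22 between them), and each was entered as 1 replicate. That check cannot show whether they came from separate mice, so the SEs and adjusted p values may rest on technical spread alone. Libraries with the same replicate number did not deviate together (residual correlation -0.0365 to 0.0526), so no block was used. Of the listed genes 19443 matched GENCODE M21.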

Additional observations from a re-analysis of the deposited data

How the results depend on the processing

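The number of higher members, 3 in the deposited TPM, was 5 in CPM with library totals, 24 in CPM with TMM factors, 23 in TMM-scaled TPM and 9 in TPM centred on the median ratio, a setting added after seeing the data. It was 0 with a return range of 10% below to 11% above control, 14 with one of 0.67 to 1.5 times control, 91 with no minimum level, 24 at 1.5-fold and 0 at 3-fold. The number of lower members, 12, was 15 in CPM with library totals, of which only 3 were among the 12, 2 in CPM with TMM factors, 2 in TMM-scaled TPM and 4 in centred TPM. It was 3 and 37 with those ranges, 34 at a minimum of 5 TPM, 5 at 20 TPM, 454 with no minimum, 130 at 1.5-fold and 0 at 3-fold. Leaving out 1 library at a time gave 2 to 4 higher and 10 to 16 lower members, and 7 of the 15 members were kept each time. In the CPM settings the level limit was 10 CPM in place of 10 TPM, so the genes screened also differed. A change of count does not show which genes were kept, and the cause of each shift was not tested beyond the scale shift given above.

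The counts of genes past the edgeR threshold stayed within 1.5 times under every alternative run. With the replicate block they were 10379, 8261 and 11209, against 10467, 8396 and 11293 without it, for inhibition against control, spermidine against inhibition and spermidine against control. Among the tests of related genes 415 values kept their direction and call. Those that turned were Rrad against control with spermidine (0.27 and 0.23 in limma on log2(TPM + 0.1) and log2(TPM + 1), from -0.33) and H2-Aa (0.19 and 0.18, from -0.31). Both lost their call with total counts only (-0.07 and -0.04). There were 11 gained calls, for Cd74 against control, and for H2-D1 and H2-T23 with spermidine against inhibition (0.27 and 0.34 with total counts only, and also in limma at both pseudocounts; H2-T23 0.11 without inhibition replicate 3). Depth limits Tle6 most, at 43 counts in its lowest library.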

Other observations

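The genes that met the rule in TMM-scaled TPM, named here after their values were seen, shared only Lgals3 and Tle6 with those of the deposited TPM. The 23 higher genes include 4 known from myeloid cells: Fcer1g, the Fc receptor gamma chain, with deposited TPM means of 348, 855 and 489 in control, inhibition and spermidine (TMM-scaled ratios to control 2.34 and 1.06), Slpi, a secreted protease inhibitor, with 126, 347 and 167 TPM (2.62 and 0.99), Ccr2, a monocyte chemokine receptor (2.43 and 1.01), and Ms4a6d (2.66 and 1.12). Clu, clusterin, had TMM-scaled ratios of 2.23 and 0.96, and Asns, asparagine synthetase, 2.03 and 1.15. Dstn, the actin-severing protein destrin, had 2.59 and 1.16, and Msrb1, a methionine sulphoxide reductase, 2.73 and 1.15. The 2 lower genes were Tle6 and Id3, which in deposited TPM had means of 15.997, 7.994 and 23.76 and TMM-scaled ratios of 0.48 and 1.12. The summed TPM of the neutrophil genes was 6574 to 6810 in control, 89957 to 90787 with inhibition and 39161 to 39908 with spermidine, and its part in these values was not tested.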
